A study of Homo sapiens with 12 samples.

Results

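The zinc transporters, the metallothioneins and the zinc-sensing factor MTF1 were examined in an RNA-seq table of IMR90 ER:RAS cells, which are human lung fibroblasts that carry a RAS oncogene fused to the estrogen receptor, so that 4-hydroxytamoxifen (4OHT) turns it on and triggers oncogene-induced senescence (OIS). A gene was a member if its symbol was SLC30A or SLC39A with a number, MT1 with a single letter, MT2A or MTF1, and if it was annotated as protein coding. This gave 34 of the 62069 genes in the table, made up of 9 metallothioneins, 10 SLC30A genes, 14 SLC39A genes and MTF1. The symbol rule also matched MT1L, a transcribed pseudogene, which is described apart from the members.

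The 4 groups held 3 libraries each. The vector group was not induced, and vector/4OHT was the induced control. The shXPO7_3/4OHT and shXPO7_5/4OHT groups were induced cells that carried 1 of 2 shRNAs against XPO7, an exportin that carries proteins between nucleus and cytoplasm. All 4 groups were the same cell line at the same passage, labelled as day 5 of the time course. They were cultured for 7 days with a change of medium on day 4, and 4OHT was given at 100 nM. No group held cells with an shRNA against XPO7 that were left uninduced. Because 4OHT and active RAS came together, the effects of the drug and the oncogene cannot be told apart. The labels name the libraries of a group by letter (T, A and C for vector, and T, A and B for the others) and give no word on separate cultures. The p-values therefore measure the spread between these libraries only, which may be technical.

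Zinc is needed by many enzymes and transcription factors, and free zinc in the cytosol is kept very low. SLC30A proteins (ZnT) move zinc out of the cytosol, across the plasma membrane or into organelles, and SLC39A proteins (ZIP) move it into the cytosol. Metallothioneins are small cysteine-rich proteins that bind zinc, copper and cadmium, and MTF1 is the transcription factor that senses zinc and switches on metallothionein genes and SLC30A1 through metal response elements in their promoters.

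Library totals ran from 28534141 to 60397769 counts. Levels are given as CPM (counts-per-million of the library, scaled by TMM factors). XPO7 was at 127 to 144 CPM in vector/4OHT, at 26.4 to 28.7 CPM in shXPO7_3/4OHT and at 50.8 to 54.0 CPM in shXPO7_5/4OHT, with log2 fold changes of -2.30 ± 0.07 (SE) and -1.39 ± 0.07 (SE). Fibroblast markers summed to 16696 to 27880 CPM per library, while epithelial markers reached at most 1.24 CPM, endothelial markers 1.10 CPM and blood cell markers 0.219 CPM. PECAM1, CDH5, CD3E, KRT5 and SFTPC, which define endothelium, T cells and epithelia, had no count in any library. In vector/4OHT, 5 of the 8 fibroblast markers (COL1A1, COL1A2, COL3A1, THY1 and DCN) and the epithelial marker EPCAM were lower than in vector. Of all genes tested, 26.1% were lower. All of these markers stayed called once corrected for GC content and transcript length, and LUM was called lower as well (-0.64, adjusted p = 0.00273). In shXPO7_5/4OHT the fibroblast marker PDGFRB was higher than in vector/4OHT (log2 fold change 0.58, adjusted p = 0.0256). With shXPO7_3, PDGFRB was at 0.52 and not called (adjusted p = 0.0834). Once corrected for GC content and transcript length, PDGFRB passed in both knockdown groups (0.48 with shXPO7_3, 0.43 with shXPO7_5), as did COL3A1 (0.30 and 0.16). The endothelial marker KDR passed with shXPO7_3 only after this correction (1.43, adjusted p = 0.0353). Uncorrected, KDR was at 1.42 and not called (adjusted p = 0.15), on 7 to 48 counts per library. The part of these markers in the members' values was not tested. In bulk RNA, fewer cells of a type and less RNA per cell cannot be told apart.

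Libraries of the same group stood apart in how much of their signal came from GC-rich transcripts. Across 14864 genes, the Spearman correlation between transcript GC content and the log ratio of a library to the vector/4OHT mean was 0.567 in shXPO7_3/4OHT T, 0.598 in shXPO7_5/4OHT T and 0.770 in shXPO7_5/4OHT B, and between -0.334 and 0.308 in the other 9 libraries. These values matter here because the 2 transporter families differ in composition. The longest transcripts of the tested SLC30A genes had a GC content of 36.2% to 56.4%, with every one except SLC30A3 at or under 40.0%, whereas the tested SLC39A genes spanned 37.6% to 62.8% and the tested metallothioneins 53.5% to 53.9%. Members' fold changes between the 4OHT groups are therefore also given after a correction for GC content and transcript length.

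Of the 34 members, 22 had enough counts to be tested. These were 3 metallothioneins (MT2A, MT1E and MT1X), 7 SLC30A genes, 11 SLC39A genes and MTF1. The other 12 were at or near background. MT1B had no count in any library, and a count of 0 allowed a level of up to 0.105 CPM in the shallowest library. MT1A had 2 to 21 counts per library, MT1G 0 to 13, MT1F 0 to 6, MT1M 0 to 5 and MT1H 0 to 1. SLC30A2, a transporter of secretory vesicles in mammary gland, had 0 to 3 counts. SLC30A8, which loads zinc into insulin granules, had 0 to 1, and SLC30A10, a manganese exporter, had 0 to 2. SLC39A12 had 0 to 6, and SLC39A2 and SLC39A5 each had 0 to 1.

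Divided by the length of the longest protein-coding transcript, the order of levels in vector/4OHT was led by MT2A at 965 CPM per kb. SLC39A7, which releases zinc from the endoplasmic reticulum, followed at 143 CPM per kb. MT1E was at 48.2, SLC39A14 at 43.4, SLC39A6 at 43.1 and SLC39A1 at 34.5 CPM per kb. The most abundant SLC30A genes were SLC30A5 at 22.8 and SLC30A9 at 20.6 CPM per kb. MTF1 was at 3.23 CPM per kb, SLC39A8 at 0.489 and SLC30A3, the transporter of synaptic vesicles, at 0.0788. The spread of each member over libraries is shown in the plot of levels by library.

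**Figure D1:**
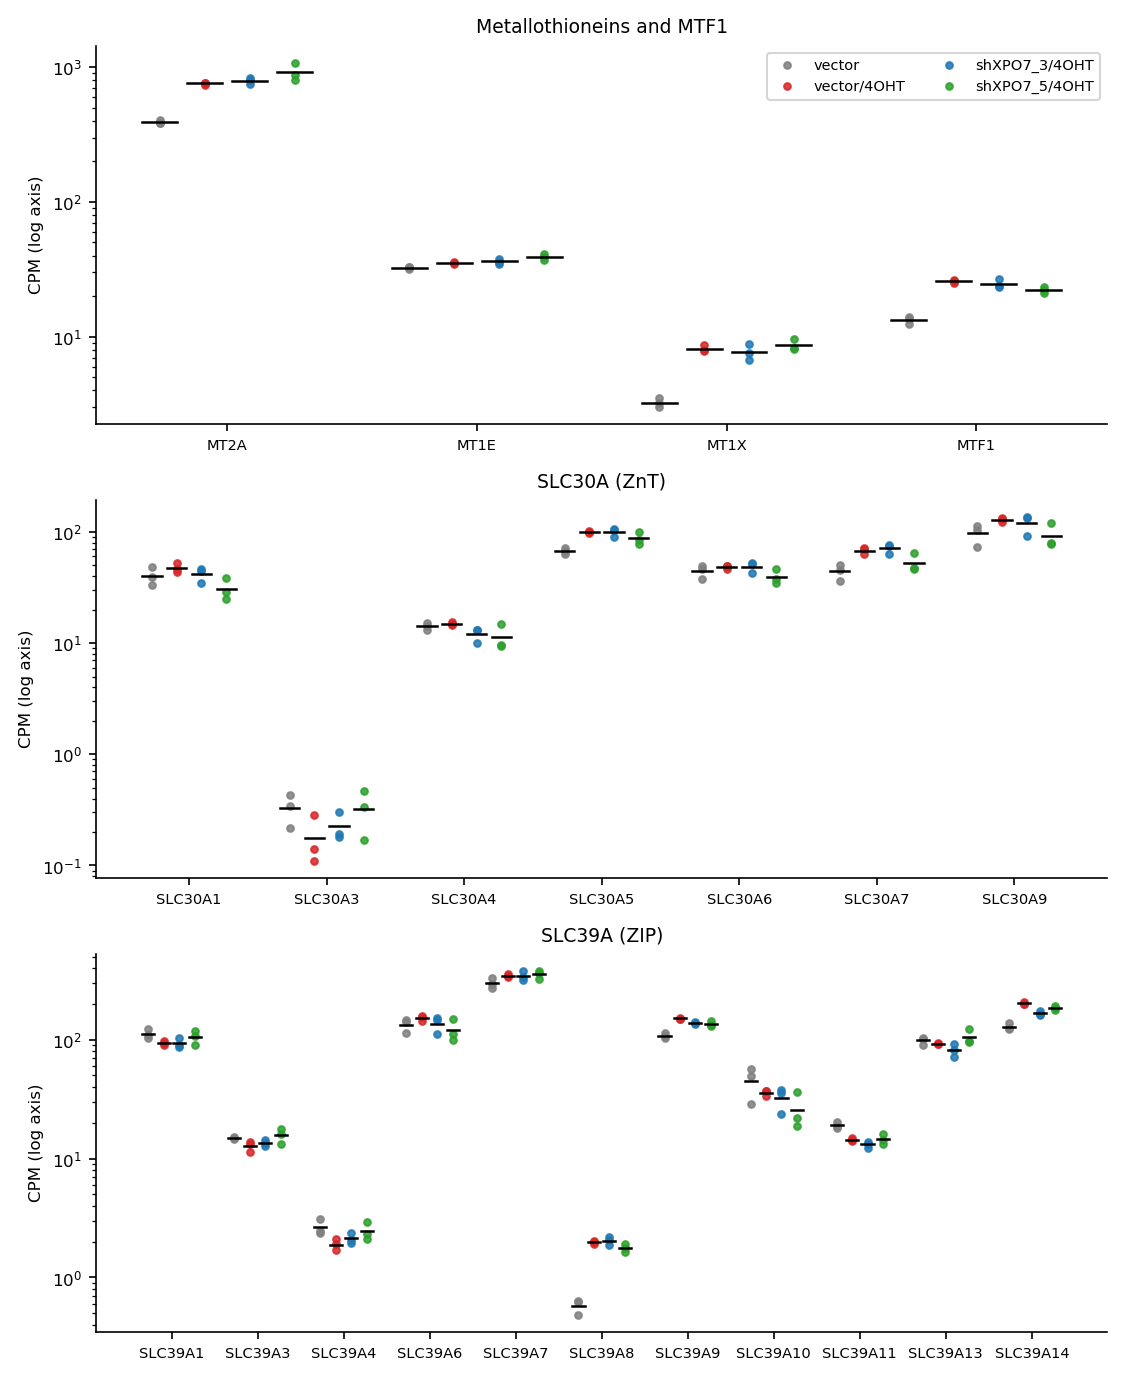
Level of each tested member in CPM (log axis) in the 12 libraries. Each point is 1 library, coloured by group, and each black line is the mean of the 3 libraries; MT2A, MT1X, MTF1 and SLC39A8 sit lower in all 3 vector libraries than in any induced library.

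The metallothionein genes lie in a cluster on chromosome 16 and are copies of each other, so their reads could be split among them. The coding sequences of the 3 tested metallothioneins are printed from GENCODE 29 (GRCh38) to show how alike they are. Each has 186 bases, and capitals in MT1E and MT1X mark bases that differ from MT2A.
MT2A: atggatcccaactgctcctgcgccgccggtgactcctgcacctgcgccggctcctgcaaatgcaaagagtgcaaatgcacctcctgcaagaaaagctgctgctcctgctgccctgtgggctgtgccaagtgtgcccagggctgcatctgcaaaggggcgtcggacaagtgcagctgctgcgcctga
MT1E: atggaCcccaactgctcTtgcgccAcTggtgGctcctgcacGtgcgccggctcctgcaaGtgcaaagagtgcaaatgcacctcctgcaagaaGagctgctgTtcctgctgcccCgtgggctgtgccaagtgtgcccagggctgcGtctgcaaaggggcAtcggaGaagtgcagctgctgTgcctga
MT1X: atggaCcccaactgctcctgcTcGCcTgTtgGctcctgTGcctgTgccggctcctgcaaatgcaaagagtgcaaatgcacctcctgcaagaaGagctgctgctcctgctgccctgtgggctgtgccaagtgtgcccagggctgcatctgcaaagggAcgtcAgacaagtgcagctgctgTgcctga
MT1E and MT1X each shared 172 bases with MT2A (92.5% identity, 14 differences), and they were 90.9% identical to each other. Exact sharing over whole transcripts was counted in stretches of 50 bases. Of all 50-base stretches, 3.0% of those in MT2A, 7.1% of those in MT1E and 18.3% of those in MT1X also occurred in transcripts of another gene. For MT1X, 14.6% were shared with AC026461.1, which overlaps it on the same strand. MT1X also shared 18 stretches with MT2A, which were 1.0% of its own and 1.3% of those of MT2A. In vector/4OHT, MT2A averaged 759 CPM and MT1X 8.14 CPM, so a small share of MT2A reads would weigh heavily on MT1X. How such reads were counted is not given. The shares therefore set no bound on the uncertainty of MT1E and MT1X. Among the transporters, 55.2% of the stretches in SLC39A1 were shared, since AL358472.7 and CREB3L4 overlap it, and 8.8% of those in SLC39A3. No other tested transporter was above 2.3%. On the opposite strand, other genes overlapped 9.2% of the exon bases of SLC30A5, 8.6% of those of SLC39A7, 8.3% of SLC39A1 and 5.2% of SLC39A9, and without the strand setting of the counting their reads cannot be separated from those genes.

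In vector/4OHT against vector, 10 of the 22 tested members differed at an adjusted p under 0.05, or 45.5%, against 50.9% of all 15284 genes tested. Of these, 8 rose (36.4%, against 24.8% of all genes) and 2 fell (9.09%, against 26.1%). The median log2 fold change was 0.20 over the tested members and -0.01 over all genes tested. The 8 that rose were MT2A, MT1X and MTF1, the ZnT genes SLC30A5 and SLC30A7, and the ZIP genes SLC39A8, SLC39A9 and SLC39A14. SLC39A4 and SLC39A11 fell. The share of members called is near that of all genes, and is no result about the members as a group.

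**Figure D2:**
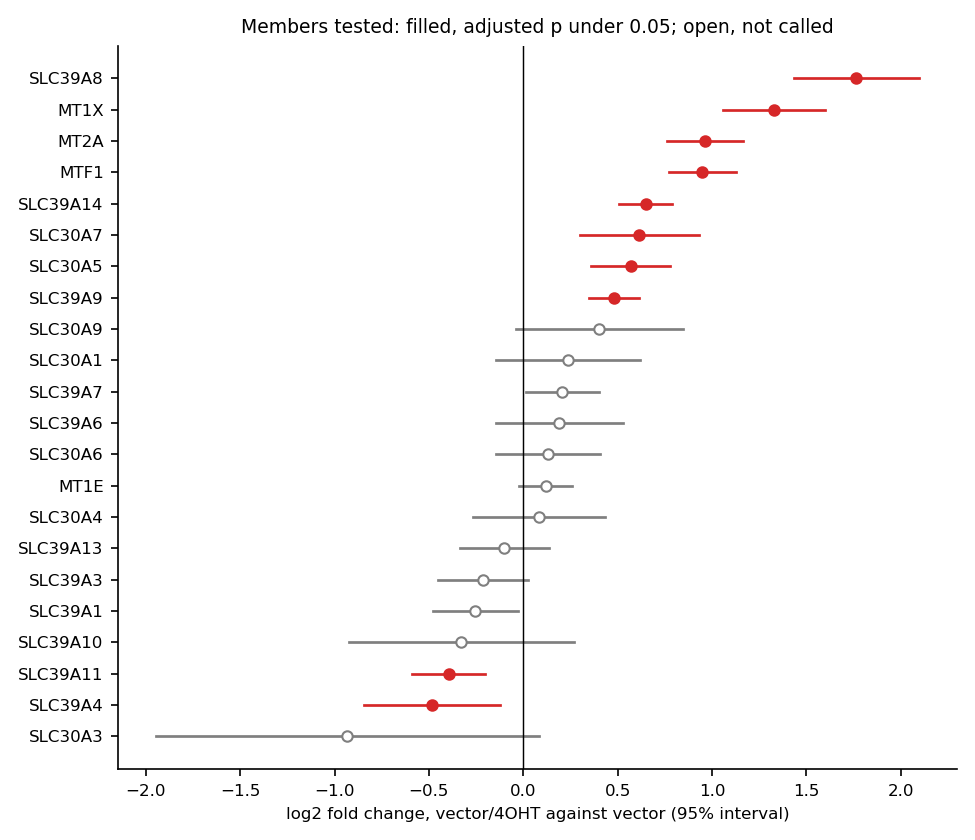
Log2 fold change (x axis) of the 22 tested members in vector/4OHT against vector, with bars for the 95% interval. Filled red points passed an adjusted p of 0.05 and open grey points did not; SLC39A8 at 1.77 and MT1X at 1.33 are the farthest right of the called members.

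MT2A was the bulk of the metallothionein signal. In vector it was at 402, 382 and 384 CPM (libraries T, A and C), and in vector/4OHT at 739, 769 and 769 CPM (T, A and B). All 3 induced libraries were above all 3 vector libraries, and the log2 fold change was 0.96 ± 0.09 (SE, adjusted p = 3.17e-06). MT1X was at 2.997, 3.21 and 3.51 CPM in vector and at 7.82, 7.97 and 8.63 CPM in vector/4OHT. Its groups did not overlap either, at a log2 fold change of 1.33 ± 0.12 (SE, adjusted p = 2.27e-06). MT1E, the second metallothionein by level, averaged 32.4 ± 0.757 CPM (SD of 3 libraries) in vector and 35.1 ± 0.427 CPM in vector/4OHT. Its groups did not overlap (31.5 to 32.9 CPM and 34.7 to 35.55 CPM). The change of 0.12 on the log2 scale (95% interval -0.02 to 0.26) was not called (adjusted p = 0.15). Only the GC and length correction together with a block on the replicate letter called it (0.21, adjusted p = 0.0144).

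Summed over the 9 metallothioneins, the level was 426 ± 10.1 CPM (SD) in the 3 vector libraries and 803 ± 17.1 CPM in the 3 of vector/4OHT, a ratio of 1.89. MT2A made up 91.3% to 95.5% of the sum in every library, so the sum describes MT2A rather than the family. The pseudogene MT1L averaged 9.46 ± 0.520 CPM in vector and 26.6 ± 0.607 CPM in vector/4OHT. Its log2 fold change was 1.49 ± 0.08 (SE), and 4.4% of its 50-base stretches occurred in another gene.

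MTF1 was at 14.0, 13.5 and 12.5 CPM in vector and at 26.4, 25.8 and 25.0 CPM in vector/4OHT. The lowest induced library was above the highest vector library, with a log2 fold change of 0.95 ± 0.08 (SE, adjusted p = 1.12e-06). The exact permutation test of 3 libraries against 3 gave p = 0.1 for MT2A, MT1X, MTF1 and SLC39A8, the smallest it can give.

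The promoters of 26 members were found in the RefSeq promoter table (GRCh38.p14, 250 bases before to 50 bases after each start), and these were searched for the core of the metal response element as TGCACNC or TGCGCNC on both strands. No promoter was found there for MT1A, MT1E, MT1F, MT1G, MT1M, SLC30A8, SLC39A4 and SLC39A14, so these were not searched. A site was present in 11 of the 26. Among all 35116 promoters of the same length, 29.6% held at least 1 site and 2.3% held at least 3. The MT2A promoter held 8 sites, MT1H 8, MT1X 4, MT1B 3 and SLC30A2 3. SLC30A1 and SLC30A3 held 2 each, and SLC30A4, SLC30A6, SLC39A3 and SLC39A6 held 1 each. The 250 bases before the start are printed for the called metallothioneins and for SLC30A1, the textbook transporter target of MTF1, with each site in capitals.
MT2A (chr16:56608334-56608583, + strand): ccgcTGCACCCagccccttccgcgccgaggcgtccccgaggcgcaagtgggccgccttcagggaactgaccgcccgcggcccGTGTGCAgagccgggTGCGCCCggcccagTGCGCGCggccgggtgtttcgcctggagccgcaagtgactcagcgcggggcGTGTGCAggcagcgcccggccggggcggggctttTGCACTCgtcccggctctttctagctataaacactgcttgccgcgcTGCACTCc
MT1X (chr16:56682220-56682469, + strand): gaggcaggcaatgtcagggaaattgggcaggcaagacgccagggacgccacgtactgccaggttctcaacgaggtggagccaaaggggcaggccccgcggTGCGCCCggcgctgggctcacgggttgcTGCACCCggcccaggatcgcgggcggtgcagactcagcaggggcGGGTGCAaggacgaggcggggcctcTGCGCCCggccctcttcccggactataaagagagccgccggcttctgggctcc
SLC30A1 (chr1:211579162-211579411, - strand): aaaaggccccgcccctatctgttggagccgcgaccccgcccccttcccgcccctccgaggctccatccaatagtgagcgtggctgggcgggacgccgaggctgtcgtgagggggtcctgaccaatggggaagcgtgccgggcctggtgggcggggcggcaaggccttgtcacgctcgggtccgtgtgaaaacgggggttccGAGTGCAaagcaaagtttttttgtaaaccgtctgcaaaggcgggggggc
The printed part holds 7 of the sites of MT2A, 4 of MT1X and 1 of SLC30A1, and the remaining sites lie after the start. Among the members that rose in OIS, no site was found in the searched windows of MTF1, SLC30A5, SLC30A7, SLC39A8 and SLC39A9. SLC39A14, which also rose, was not searched. MT1H, with 8 sites, and MT1B, with 3, did not exceed 1 count in any library. A match is a description of these letters and not of binding.

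Among the exporters, SLC30A1 is the ZnT of the plasma membrane. It was at 33.0, 39.5 and 48.5 CPM in vector and at 52.8, 46.3 and 43.3 CPM in vector/4OHT. The groups overlapped, and the log2 fold change of 0.23 (95% interval -0.15 to 0.62) was not called (adjusted p = 0.284). The GC and length correction called it, at 0.15 (adjusted p = 0.026). Of the ZnT genes of the early secretory pathway, SLC30A5 and SLC30A7 rose and SLC30A6 was not called. SLC30A7, which supplies zinc to secreted enzymes, went from 36.5 to 50.5 CPM in vector to 63.2 to 70.9 CPM in vector/4OHT. Its log2 fold change was 0.61 ± 0.15 (SE, adjusted p = 0.00367). SLC30A5, which acts in the same compartment, went from 62.8 to 71.1 CPM to 97.3 to 102 CPM. Its log2 fold change was 0.57 ± 0.10 (SE, adjusted p = 0.000346). SLC30A6, the partner of SLC30A5 in a heterodimer, had a log2 fold change of 0.13 (95% interval -0.15 to 0.41, adjusted p = 0.421).

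SLC30A9, a mitochondrial zinc transporter, had a log2 fold change of 0.40 (adjusted p = 0.118). Its vector group ran from 73.1 to 114 CPM, below all vector/4OHT libraries. SLC30A9 was called with the correction (0.35, adjusted p = 0.000389) and in 4 other fits. SLC30A4, of endosomes and lysosomes, had 0.08 (adjusted p = 0.696). SLC30A3 had -0.93 with a 95% interval of -1.94 to 0.08, on 4 to 18 counts per library. SLC30A4 and SLC30A3 were not called in any fit of this comparison.

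Among the importers, SLC39A8, which takes up zinc, manganese and cadmium at the plasma membrane, had the largest log2 fold change of the called members. It was at 0.618, 0.632 and 0.482 CPM in vector and at 2.02, 1.91 and 1.98 CPM in vector/4OHT. The induced libraries were all more than 3 times as high as the highest vector library, and the log2 fold change was 1.77 ± 0.15 (SE, adjusted p = 1.12e-06). The level stayed low, with 17 to 129 counts per library over all groups. SLC39A14, which takes up zinc, manganese and iron that is not bound to transferrin, was at 137, 126 and 122 CPM in vector and at 206, 198 and 200.4 CPM in vector/4OHT. The groups did not overlap, and the log2 fold change was 0.65 ± 0.06 (SE, adjusted p = 3.79e-06). SLC39A9, a ZIP of the Golgi and cell surface, was at 114, 107 and 103 CPM in vector and at 152, 150.1 and 149.6 CPM in vector/4OHT, again without overlap (log2 fold change 0.48 ± 0.06 SE, adjusted p = 3.56e-05).

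SLC39A11 fell by 0.40 on the log2 scale (SE 0.09, adjusted p = 0.00235), from 19.0 ± 1.08 to 14.4 ± 0.485 CPM. SLC39A4, the intestinal zinc importer that is mutated in acrodermatitis enteropathica, fell by 0.48 (SE 0.17, adjusted p = 0.0276), from 2.63 ± 0.414 to 1.89 ± 0.198 CPM. That call was lost without vector A (adjusted p = 0.119), without vector/4OHT T (0.102), without vector/4OHT B (0.0631), after the GC and length correction (0.0685) and with DESeq2 (0.0743).

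The other 6 tested ZIP genes were not called, although the groups of SLC39A1, SLC39A3 and SLC39A7 did not overlap. SLC39A7 had a log2 fold change of 0.21 (adjusted p = 0.0684), and the GC and length correction gave 0.34 (adjusted p = 1.09e-06). SLC39A1, a plasma membrane importer, had -0.26 (adjusted p = 0.0566), and the correction gave -0.10 (adjusted p = 0.0473). SLC39A6 had 0.19, SLC39A10 -0.33, SLC39A3 -0.21 and SLC39A13 -0.10, with adjusted p of 0.122 to 0.468. The correction called SLC39A10 (-0.39, adjusted p = 0.00692) and SLC39A6 (0.17, adjusted p = 0.0395), gave -0.05 for SLC39A3 and turned SLC39A13 to 0.08, neither of them called. With the correction, 63.9% of all genes were called. SLC39A13 acts in the secretory pathway of connective tissue cells, and SLC39A6 and SLC39A10 form a complex at the plasma membrane. Within vector, SLC39A10 ran from 28.8 CPM in T to 56.5 CPM in C, and T was the vector library with the highest GC correlation (0.301).

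The 2 knockdown comparisons share the vector/4OHT libraries. No member was called in shXPO7_3/4OHT against vector/4OHT, where 0.124% of all genes were called, or in shXPO7_5/4OHT against vector/4OHT, where 0.589% were. At an unadjusted p under 0.05 the edgeR fit counted 1 of 22 members with shXPO7_3 (4.55%, against 6.41% of all genes) and 12 of 22 with shXPO7_5 (54.5%, against 21.6%). With DESeq2, 0 members were called with shXPO7_3, against 0.728% of all genes given an adjusted p. With shXPO7_5 it called 1, SLC30A1, against 3.46% of all such genes. After the GC and length correction, 3 members passed an adjusted p of 0.05 with shXPO7_3 (SLC30A4, SLC39A13 and SLC39A14, 13.6%, against 2.22% of all genes) and 1 with shXPO7_5 (SLC30A1, 4.55%, against 3.08%).

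With shXPO7_5, the fold change of a member went with its GC content. Across the 22 members the Spearman correlation between the log2 fold change and GC content was 0.910, against 0.678 across all genes tested, and the correction lowered it to 0.447 for the members. These points share the same 6 libraries and are a description. The 7 SLC30A genes had a median log2 fold change of -0.37, and 6 of the 7 were below 0. The same median was 0.01 after the correction, with 3 of the 7 below 0. With shXPO7_3 the corresponding correlation over members was 0.287, the median of the 7 SLC30A genes was 0.01 and that of the 11 SLC39A genes was -0.13. Libraries and shRNA cannot be told apart here, since 2 of the 3 GC-rich libraries are those of shXPO7_5/4OHT and none is of vector/4OHT.

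**Figure D3:**
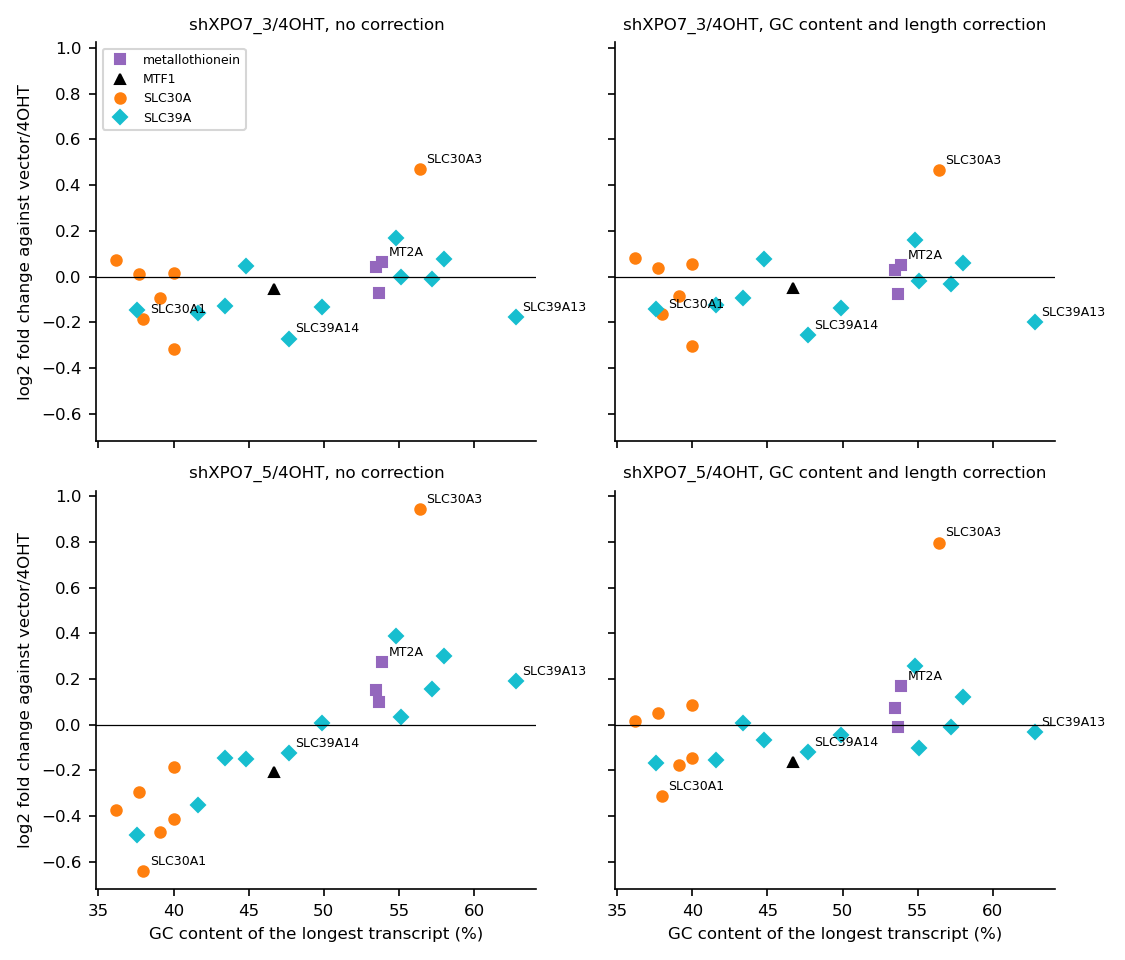
Log2 fold change of each tested member against vector/4OHT (y axis) by GC content of its longest transcript (x axis, percent), for shXPO7_3 (top) and shXPO7_5 (bottom), without correction (left) and with the GC and length correction (right). The rise from left to right in the lower left panel (Spearman 0.910) is smaller in the lower right panel (0.447).

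SLC30A1 had the smallest p of all members with shXPO7_5. It was at 28.5, 38.1 and 24.8 CPM (T, A and B) in shXPO7_5/4OHT, and all 3 were below the vector/4OHT libraries (43.3 to 52.8 CPM). The log2 fold change was -0.64 ± 0.18 (SE, adjusted p = 0.113), and the correction reduced it to -0.31 with an adjusted p of 0.0111. The library with the least GC-rich signal of that group, A, was the nearest to the control. With the 3 GC-rich libraries left out, the log2 fold change rested on A alone and was -0.32. In shXPO7_3/4OHT, SLC30A1 was at 34.7, 44.0 and 46.3 CPM, which overlapped the control, with a log2 fold change of -0.19 (95% interval -0.57 to 0.19), or -0.17 with the correction.

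SLC39A14 had the smallest p with shXPO7_3. It was at 174, 162 and 165 CPM in shXPO7_3/4OHT, all below the 198 to 206 CPM of vector/4OHT and all above the 122 to 137 CPM of vector. The log2 fold change was -0.27 (95% interval -0.41 to -0.13, unadjusted p = 0.00109) and was not called (adjusted p = 0.167; DESeq2 0.0549). It was -0.26 after the correction (adjusted p = 0.00572) and -0.30 without the 3 GC-rich libraries (adjusted p = 0.191). In shXPO7_5/4OHT it was at 194, 178 and 183 CPM, also below the control libraries, with a log2 fold change of -0.12 (95% interval -0.26 to 0.01, adjusted p = 0.253), which the correction left at -0.12.

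MT2A was at 826, 751 and 801 CPM in shXPO7_3/4OHT, which overlapped vector/4OHT, and at 872, 800.3 and 1078 CPM in shXPO7_5/4OHT, which did not. The log2 fold changes were 0.06 (95% interval -0.14 to 0.26) and 0.27 (95% interval 0.07 to 0.47, adjusted p = 0.169). The correction gave 0.05 for shXPO7_3 and 0.17 for shXPO7_5 (adjusted p = 0.226). The highest MT2A value was in shXPO7_5/4OHT B, the library with the highest GC correlation. The summed metallothionein level was 837 ± 39.8 CPM (SD, n = 3) in shXPO7_3/4OHT and 965 ± 146 CPM in shXPO7_5/4OHT. MT1X was at 7.55, 6.70 and 8.88 CPM and at 8.15, 8.31 and 9.69 CPM in the same groups, and MT1E at 36.1 ± 1.48 and 39.0 ± 1.76 CPM. MT1X overlapped vector/4OHT in both groups. Its log2 fold changes were -0.07 and 0.10, or -0.08 and -0.01 with the correction, and those of MT1E were 0.04 and 0.15, or 0.03 and 0.07.

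MTF1 was at 23.4, 23.9 and 27.0 CPM in shXPO7_3/4OHT and at 23.4, 22.2 and 21.2 CPM in shXPO7_5/4OHT. The former overlapped vector/4OHT, and the latter was below it, at a log2 fold change of -0.21 (95% interval -0.38 to -0.03, adjusted p = 0.2). With the correction MTF1 was at -0.05 with shXPO7_3 and at -0.16 with shXPO7_5. SLC39A8 was at 1.87, 2.05 and 2.17 CPM and at 1.92, 1.78 and 1.64 CPM in the 2 knockdown groups, all above the vector libraries, with log2 fold changes against vector/4OHT of 0.05 (95% interval -0.24 to 0.33) and -0.15 (95% interval -0.44 to 0.14). The correction gave 0.08 and -0.07.

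The remaining members with the smallest p were also not called. SLC39A9 was at 141, 138 and 135 CPM with shXPO7_3 and at 144, 134 and 131 CPM with shXPO7_5, below the control in both groups (log2 fold changes -0.13 and -0.15, adjusted p = 0.806 and 0.215). With the correction these values were -0.09 and 0.01. SLC30A4 was at 13.0, 14.2 and 15.2 CPM in vector and at 15.4, 14.9 and 14.6 CPM in vector/4OHT. It was at 9.96, 13.0 and 13.0 CPM with shXPO7_3 and at 9.67, 14.7 and 9.34 CPM with shXPO7_5. Its log2 fold changes were -0.32 and -0.41 (adjusted p = 0.847 and 0.204), and -0.31 and -0.15 with the correction (adjusted p = 0.0421 and 0.277). SLC39A3, an importer of the plasma membrane, was at 15.1, 14.8 and 14.7 CPM in vector and at 13.3, 11.3 and 13.8 CPM in vector/4OHT. With shXPO7_3 it was at 14.2, 12.8 and 13.6 CPM and with shXPO7_5 at 16.0, 13.4 and 17.9 CPM (log2 fold changes 0.08 and 0.30, adjusted p = 0.999 and 0.189). The correction gave 0.06 and 0.12.

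For the other transporters, values are given by family. With shXPO7_5 the log2 fold changes of the ZnT genes of low GC content were -0.19 for SLC30A5, -0.29 for SLC30A6, -0.37 for SLC30A7 and -0.47 for SLC30A9, and after the correction they were 0.08, 0.05, 0.01 and -0.18. SLC30A3, the GC-rich ZnT gene, had 0.95 with a 95% interval of -0.08 to 1.97, and 0.80 with the correction. Of the ZIP genes, SLC39A10 (-0.48) and SLC39A6 (-0.35) had the lowest values and the lowest GC content of the tested ZIP genes, and SLC39A4 (0.39) had the highest value. With the correction SLC39A10 was at -0.17, SLC39A6 at -0.16 and SLC39A4 at 0.26. SLC39A13 was at 0.19, SLC39A1 at 0.16, SLC39A7 at 0.04 and SLC39A11 at 0.01, and with the correction at -0.03, -0.01, -0.10 and -0.04. With shXPO7_3, SLC30A5, SLC30A6, SLC30A7, SLC39A1 and SLC39A7 all lay between -0.01 and 0.07 (-0.03 and 0.08 with the correction), and SLC30A9 was at -0.10. SLC39A11 was at -0.14, SLC39A10 at -0.15, SLC39A6 at -0.16, SLC39A13 at -0.18, SLC39A4 at 0.17 and SLC30A3 at 0.47. With the correction these 6 were at -0.14, -0.14, -0.13, -0.20, 0.16 and 0.46, and SLC30A9 was at -0.09. None of these values was called without the correction, and the intervals of SLC39A7 (-0.19 to 0.19 with shXPO7_3, and -0.16 to 0.23 with shXPO7_5), the most abundant transporter by length, reached no further than 0.23 on the log2 scale.

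Between the shRNAs, shXPO7_5/4OHT against shXPO7_3/4OHT called no member, with 0.0131% of all genes called. At an unadjusted p under 0.05 it counted 6 of 22 members (27.3%, against 11.9% of all genes), namely MT2A, SLC30A1, SLC30A6, SLC30A7, SLC39A13 and SLC39A14. DESeq2 called none either, against 0.17% of all genes given an adjusted p. SLC39A13 had the smallest p, with 91.2, 71.3 and 82.2 CPM in shXPO7_3/4OHT and 98.3, 95.1 and 122 CPM in shXPO7_5/4OHT (log2 fold change 0.37, 95% interval 0.13 to 0.60, adjusted p = 0.388). The correction lowered it to 0.17. Without and with the correction, the log2 fold changes were 0.21 and 0.12 for MT2A and -0.45 and -0.15 for SLC30A1. They were -0.30 and 0.01 for SLC30A6, -0.44 and -0.07 for SLC30A7, and 0.15 and 0.14 for SLC39A14. The Spearman correlation of the log2 fold change with GC content over members was 0.924 in this comparison, against 0.699 over all genes tested. With the correction it was 0.499 over members.

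The other genes of metal handling were taken from a list of 20, of which 15 were tested. In vector/4OHT against vector, 6 rose and 4 fell, where 24.8% of all genes tested rose and 26.1% fell, and the median log2 fold change was 0.09 against -0.01 over all genes. The copper importer SLC31A1 rose from 96.4 to 239.8 CPM (log2 fold change 1.31) and the copper-exporting ATPase ATP7A from 57.3 to 110.1 CPM (0.94). SLC31A2 (0.62), SLC41A2 (0.62), STEAP2 (0.59) and COX17 (0.26) rose by less. Both copper and zinc superoxide dismutases fell. Secreted SOD3 fell by 2.91 on the log2 scale and cytosolic SOD1 fell by 0.36. The zinc-sensing receptor GPR39 fell by 0.86 and SLC41A1 by 0.37. With the correction COX17 was not called (0.15, adjusted p = 0.143). CCS (0.23, adjusted p = 0.00489) and STEAP3 (0.23, adjusted p = 0.000113) were called only with it. With shXPO7_3 none was called, and the largest log2 fold changes were those of ATP7B (-0.30), SOD3 (0.28) and STEAP2 (0.21). ATP7B, another copper-exporting ATPase, was called after the correction (-0.32, adjusted p = 0.0267). With shXPO7_5, SOD3 was called, at a log2 fold change of 0.89 (adjusted p = 0.0216), or 0.63 with the correction (adjusted p = 0.0305). None differed between the shRNAs, where SOD3 (0.60), ATP7A (-0.41) and STEAP2 (-0.32) had the largest values, which were 0.36, -0.11 and 0.03 with the correction.

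A list of metal and oxidative stress genes had 13 tested members. In vector/4OHT against vector, 5 rose and 4 fell, against the same 24.8% and 26.1% of all genes, and the median log2 fold change was 0.11. The glutathione and thioredoxin genes SLC7A11 (1.2), GCLC (0.96), TXNRD1 (0.59) and GCLM (0.30) rose, as did the chaperone HSPH1 (0.55). The chaperones HSPB1 (-0.99), HSPA1A (-0.83) and HSPA1B (-0.80) fell, as did OSGIN1 (-0.53). HSPA1A and HSPA1B are near-identical copies, so their separate values are uncertain. HMOX1, which responds to heavy metals and heme, was at 38.7 CPM in vector and 35.0 CPM in vector/4OHT and was not called. In OIS the correction dropped the call of GCLM (0.19, adjusted p = 0.173) and added DNAJB1 (0.28, adjusted p = 3.57e-05). Without the correction no gene of this list was called in either knockdown comparison or between the shRNAs. With it, HMOX1 was called with shXPO7_3 (0.36, adjusted p = 0.0177). The largest log2 fold changes were HMOX1 (0.39), NQO1 (0.17) and GCLM (0.13) with shXPO7_3, and SLC7A11 (-0.60), HSPB1 (0.46) and HSPH1 (-0.36) with shXPO7_5. The correction lowered the latter 3 to -0.21, 0.22 and -0.09. Between the shRNAs they were SLC7A11 (-0.61), HSPB1 (0.40) and HSPH1 (-0.37), and with the correction -0.21, 0.18 and -0.12.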

How the data were processed

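The 12 libraries of IMR90 ER:RAS cells were assigned to groups by the sample labels, which call the controls only non-induced and induced. The name vector for these controls was taken from the paper, and shXPO7_5 was taken to be its shXPO7_X5. The authors deposited counts per gene from their reads, without normalization. Per the submitters' processing notes, reads went through CASAVA 1.8.4, TopHat2 2.0.11 and featureCounts 1.18.0, with hg19 and GRCh37 as builds. The labels name a stranded mRNA kit. Which annotation and strand setting were used, and how reads with more than 1 match were counted, is not given in the sources used here. Spike-in entries (92) summed to 0 and were dropped. A symbol was found for 49517 genes, or 99.49% of all counts.

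The tests were run with edgeR 4.0.16 (R 4.3.3). After filterByExpr, 15284 genes remained. TMM factors were used, and the quasi-likelihood fit took in the 12 libraries as 4 groups without covariates. Adjustment was by Benjamini-Hochberg over every gene tested, at a threshold of 0.05. The methods text read here names no test for these counts, and further supplementary methods were not used here. For single genes an exact permutation test (two-sided) was added, which cannot go below 0.1 with 3 libraries against 3. Within each group every pair of libraries differed beyond sampling noise (chi-square per gene 4.57 to 61.7), and none was treated as a repeat. Upper limits for a count of 0 use 3 counts and cover counting error only. The GC and length correction fits splines with 5 degrees of freedom for each, per library, and enters them as an offset. Scripts were tested on simulated data.

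Alternatives were RLE and upper-quartile scaling, other filters on low counts, a block on the replicate letter, the GC and length correction, a fit of the compared groups alone, each library left out, and DESeq2 1.42.0. A fit without the 3 GC-rich libraries was added after seeing the data.

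Members and gene lists were chosen with earlier results of these data known. Values in every library are given for members called in OIS with a log2 fold change of at least 1 or called between 4OHT groups, for MTF1, MT2A and SLC30A1, and for the 3 members with the smallest p in each knockdown comparison. Other members have group values. Where a list had no called gene, its 3 largest changes are given. The metal handling list also held MT3, MT4, TMEM163, SLC11A1 and STEAP4, which were not tested. It held ATOX1, CCS, SLC11A2, STEAP3 and ATP7B as well, which were not called in OIS without the correction. SRXN1 had no row by that symbol, HSPA6 was not tested, and DNAJB1, BAG3 and NQO1 were not called in OIS without the correction.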

Additional observations from a re-analysis of the deposited data

How the results depend on the processing

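Of the vector/4OHT against vector results, the calls of MT2A, MT1X, MTF1, SLC30A5, SLC30A7, SLC39A8, SLC39A9, SLC39A11 and SLC39A14 were the same in all 15 alternatives. SLC39A4 was called in 10 of them. The number of members called was 10, where 50.9% of all genes were called. It was 9 to 11 with each library left out, where 43% to 47.2% of all genes were called. With the replicate block together with the GC and length correction it was 16 (62.9% of all genes), and 15 with the correction alone (63.9%). Calls that appeared with 1 library left out were SLC39A7 without vector T (log2 fold change 0.28, adjusted p = 0.0259) and SLC39A1 without vector C (-0.30, adjusted p = 0.0461). Directions turned for SLC30A4, to -0.0142 with upper-quartile factors and to -0.0107 with the block and correction, and for SLC39A13, to 0.0756 with the correction and 0.0645 with the block and correction. Over single members, 296 values were the same in direction and call, 23 gained a call, 5 lost one (all SLC39A4) and 4 turned. In the knockdown comparisons the tally took in only some of the members. With shXPO7_3, 93 of their values were the same and 3 gained a call, and with shXPO7_5 73 and 7, with none turned. Outside the tally, directions did turn. With shXPO7_5 the correction moved SLC30A5 from -0.19 to 0.08, SLC30A6 from -0.29 to 0.05 and SLC30A7 from -0.37 to 0.01, among others. With shXPO7_3, MT1X ran from -0.20 to 0.01 with each library left out. The causes were not tested.

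With shXPO7_3 the count was 0 with every library left out (0 to 0), where at most 0.00645% of all genes were called. It was 3 with the correction (2.22% of all genes) and 2 with the block and correction (2.53%). With shXPO7_5 the count was 1 without a filter (0.685% of all genes) and 1 with the correction (3.08%). It was 2 with the block and correction (6.25%) and 1 with DESeq2 (3.46%). It ran from 0 to 10 with each library left out, the 10 arising without shXPO7_5/4OHT A (MT2A, SLC30A1, SLC30A4, SLC30A5, SLC30A6, SLC30A7, SLC30A9, SLC39A3, SLC39A6 and SLC39A10), which leaves the 2 GC-rich libraries of that group. In that fit 23% of all genes were called. Without the 3 GC-rich libraries it was 0 in all knockdown comparisons, where shXPO7_5/4OHT had 1 library, assumed to vary like the others. No alternative gave a call of a member between the shRNAs, where at most 0.379% of all genes were called.

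Neither the labels nor the counts establish that the replicate letters pair the libraries. Of 15 same-letter pairs, 8 correlated above 0.1 (r from -0.234 to 0.589), and 6 of 12 libraries correlated best with their own letter. The block alone gave 13 members called in OIS, where 52.3% of all genes were called. It added SLC30A9 (adjusted p = 0.0138), SLC39A1 (0.0157) and SLC39A3 (0.0404). The block gave 0 members called in each other comparison. The summed metallothionein level of vector/4OHT was 829 CPM with the pseudogenes added and 798 CPM with RLE factors.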
